A study of Homo sapiens and Mus musculus with 15 samples.

Results

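The enzymes that write and erase DNA methylation, and the core of Polycomb repressive complex 2 (PRC2), were followed through proteasome inhibitor resistance in 2 myeloma lines. The 10 genes were chosen by function, under a rule that uses no measured value, though with earlier results of these data known: DNMT1, UHRF1, DNMT3A and DNMT3B (methylation), TET1, TET2 and TET3 (oxidation of methylated cytosine), and EZH1, EZH2 and SUZ12 (PRC2). All 10 were listed in every count table, out of 23329 genes in the mouse tables and 23346 in the human ones. RNA had been sequenced from 15 libraries in 5 groups of 3. Bortezomib-resistant 5TGM1 cells, maintained in 20 nM of the drug, were compared with naive 5TGM1, a mouse line passaged from a plasma cell tumour of the C57Bl/KaLwRij strain. Bortezomib-resistant 8226 cells (kept in 10 nM bortezomib) and carfilzomib-resistant 8226 cells (kept in 10 nM carfilzomib) were compared with naive RPMI-8226, a human plasma cell myeloma line, here called 8226. Both drugs block the proteasome, the protease that degrades tagged proteins. Resistance had been raised by months of culture in rising drug, and RNA was taken after 5 days without it. Each resistant group is a single derived line: effects of deriving it, of resistance and of the drug itself cannot be told apart. The labels do not state that the 3 replicates of a group came from separate cultures, and the p-values then measure a spread that may be technical.

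DNMT1 copies methylation onto the new DNA strand after replication, and UHRF1 recruits it there by binding DNA that is methylated on the old strand only. DNMT3A and DNMT3B methylate sites anew, and the TET dioxygenases oxidise methylated cytosine on the way to its removal. PRC2 methylates histone H3 at K27, a mark of silent developmental genes; SUZ12 is its scaffold, and EZH2 and EZH1 are its alternative catalytic subunits, EZH2 being typical of dividing cells and EZH1 of resting ones. In myeloma and other cancers of the B lineage, EZH2 and the DNA methyltransferases have been studied as drug targets, and TET2 is a gene often mutated in blood cancers. No measurement here is of DNA methylation, of histone marks or of protein: all values are RNA.

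Gene reads per library numbered 49097494 to 72288680 in 5TGM1 and 31709636 to 58419576 in 8226, where the bortezomib-resistant libraries, the shallowest, reached at most 34339788. Levels are given as CPM, counts per 1000000 gene reads after adjustment of library sizes by edgeR's trimmed mean of M-values (TMM). A gene was called when its adjusted p (edgeR quasi-likelihood test, Benjamini-Hochberg over all tested genes) was under 0.05. The 10 plasma cell markers were all detected in each 8226 group, with a summed level of 3884.7 to 4024.5 CPM in bortezomib-resistant, 5754.8 to 5960.4 in carfilzomib-resistant and 8620.9 to 9796.0 in naive 8226 cells. Most of that sum was IGJ, the joining chain of immunoglobulin (2220.3, 4287.0 and 6893.6 CPM in the same order). In bortezomib-resistant against naive cells, 7 of the 10 markers were called lower (median log2 change -1.12), IGJ and XBP1 (-1.40) among them. Of all genes tested there, 41.6% were called lower and 38.2% higher. The other 3 markers, TNFRSF17, IRF4 and CD38, were called higher (144, 541 and 137 CPM against 41.1, 358 and 87.5 CPM). In carfilzomib-resistant against naive cells, CD38 and SLAMF7 were called higher and the other 8 markers lower (median -0.98, with 35.0% and 36.7% of all genes). In 5TGM1, 9 of those markers were listed and detected, at 8998.9 to 9378.0 CPM in resistant and 6620.8 to 6873.5 in naive cells. Of 8 tested there, 4 were called higher (Sdc1, Tnfrsf17, Igj and Pou2af1) and 3 lower, with 34.0% and 33.2% of all genes. The lower ones were Prdm1 (-0.50), Xbp1 (-0.41) and Slamf7 (-0.20). Of 10 macrophage markers, the sum was 177 to 189.9 CPM in carfilzomib-resistant 8226, against 58.9 to 62.0 in bortezomib-resistant and 58.6 to 64.0 in naive 8226, with MRC1 and MARCO at 0 counts in the carfilzomib-resistant libraries. Most of the carfilzomib-resistant sum was ITGAM (158 CPM, against 5.21 in naive cells), while CD68 was lower (13.7 against 48.3 CPM). The similar sums of bortezomib-resistant and naive cells held changes in both directions. CD68 was lower in bortezomib-resistant cells (8.63 against 48.3 CPM), and EMR1 (16.7 against 0.529 CPM) and AIF1 (25.2 against 2.96 CPM) were higher. In 5TGM1 the macrophage marker sum was 377 to 427 CPM in resistant and 285 to 288 in naive cells, with Marco at 0 in both. The sum of 10 fibroblast markers was at most 2.57 CPM in 5TGM1, and in 8226 it was 17.2 to 17.8 CPM (bortezomib-resistant), 19.2 to 21.4 (carfilzomib-resistant) and 171 to 182 (naive), most of it CXCL12, with DCN and LUM at 0 in every 8226 group. Of 9 T cell markers the sum was at most 3.48 CPM in 5TGM1, and in 8226 it was 157 to 174 CPM (bortezomib-resistant), 154 to 173 (carfilzomib-resistant) and 252 to 274 (naive), most of it CD8B. The part of these markers in the results below was not tested, and in bulk RNA fewer cells of a type and less RNA per cell cannot be told apart.

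The promoters of 6 human genes are shown because those genes fall into the patterns described below: DNMT1, UHRF1 and EZH2, which were lower in bortezomib-resistant than in carfilzomib-resistant 8226 cells, and EZH1, DNMT3B and TET1, which were higher there. SUZ12 shares the first pattern and DNMT3A and TET2 the second; their promoters are not shown. The first window that the RefSeq table lists for each gene was taken, of 3 for UHRF1 and TET1, 2 for EZH2 and 1 for the others, and those of EZH1 and TET1 did not match the start of a GENCODE transcript used here. Each run is RefSeq sequence of the GRCh38.p14 build, on the gene's strand, from 150 bases before a transcript start through the first 12 bases of the transcript. They lie at chr19:10194942-10195103 on the minus strand (DNMT1), chr19:4909351-4909512 on the plus strand (UHRF1), chr7:148884280-148884441 on the minus strand (EZH2), chr17:42745029-42745190 on the minus strand (EZH1), chr20:32779702-32779863 on the plus strand (DNMT3B) and chr10:68560187-68560348 on the plus strand (TET1). Capitals mark matches to the E2F motif, searched as TTCCCGC or TTCGCGC or TTGCCGC or TTGGCGC on either strand. E2F factors drive genes of DNA replication.
DNMT1: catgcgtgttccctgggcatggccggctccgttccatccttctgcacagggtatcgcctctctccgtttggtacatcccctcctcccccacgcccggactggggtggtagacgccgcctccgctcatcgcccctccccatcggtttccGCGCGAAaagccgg
UHRF1: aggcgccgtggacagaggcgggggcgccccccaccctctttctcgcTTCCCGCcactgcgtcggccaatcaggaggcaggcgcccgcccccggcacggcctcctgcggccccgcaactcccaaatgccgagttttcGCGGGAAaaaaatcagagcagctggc
EZH2: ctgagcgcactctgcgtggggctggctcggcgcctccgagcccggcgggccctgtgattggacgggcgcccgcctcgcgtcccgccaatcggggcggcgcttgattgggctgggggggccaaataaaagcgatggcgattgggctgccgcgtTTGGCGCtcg
EZH1: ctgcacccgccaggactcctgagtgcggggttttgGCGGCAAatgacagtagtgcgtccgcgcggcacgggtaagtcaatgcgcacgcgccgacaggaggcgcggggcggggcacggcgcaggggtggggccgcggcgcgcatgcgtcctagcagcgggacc
DNMT3B: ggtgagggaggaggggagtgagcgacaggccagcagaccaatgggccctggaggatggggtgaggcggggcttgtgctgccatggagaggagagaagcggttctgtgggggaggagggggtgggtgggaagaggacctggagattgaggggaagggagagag
TET1: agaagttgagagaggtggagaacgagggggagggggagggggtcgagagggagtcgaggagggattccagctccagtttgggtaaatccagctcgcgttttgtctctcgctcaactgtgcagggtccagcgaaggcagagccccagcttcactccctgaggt
Over the full windows of 300 bases (250 before the start and 50 from it on), the E2F letters occurred in at least 1 window of 6 of the 10 genes (DNMT1, UHRF1, EZH1, EZH2, SUZ12 and TET3) and in none of DNMT3A, DNMT3B, TET1 or TET2. They occurred in 15.3% of all 27305 symbols with a window. Counted by window, they were in 7 of the 22 windows of the 10 genes and in 13% of all 35116. The letters CCAAT, bound by the NF-Y factor, occurred in 6 of the 10 genes and 39.7% of all symbols, or in 8 of the 22 windows of the 10 genes and 34.6% of all windows; the EZH2 window shown holds 4 of them. The letters TTTGAA, known as the cell cycle homology region, occurred in 3 of the 10 genes and 18.2% of all symbols, or in 3 of those 22 windows and 15.2% of all windows. Of the genes with an E2F match, DNMT1, UHRF1, EZH2 and SUZ12 were lower in bortezomib-resistant than in naive 8226 cells, and EZH1 and TET3 were higher. A match of letters is a description and not a binding site.

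Bortezomib-resistant 8226 cells carried more RNA of DNMT3A, DNMT3B, TET1, TET2, TET3 and EZH1, and less of DNMT1, UHRF1, EZH2 and SUZ12. The falls of DNMT1 and UHRF1 were small, as 76.6% and 75.7% of all genes tested changed more. For the rise of DNMT3A that share was 70.3%. With scaling by library size alone, neither the DNMT1 nor the UHRF1 fall was called. Against naive 8226, 6 of the 10 genes were called higher and 4 lower; of all 13910 genes tested, 79.8% were called, 38.2% higher and 41.6% lower. Calls of this kind were thus common throughout the transcriptome, and the median log2 change was 0.34 over the 10 genes and -0.03 over all genes. No resistant library overlapped a naive one for any of the 10, as for 79.6% of all genes. Carfilzomib-resistant 8226 cells had 4 genes called higher and 4 lower than naive cells, where 71.7% of all genes were called (35.0% higher, 36.7% lower), and the median change was -0.02 over the 10 genes and -0.00 over all. The libraries were apart for 9 of the 10, and for 73.1% of all genes. In bortezomib-resistant 5TGM1, 1 gene was called higher and 5 lower of the 9 that passed the filter on low counts, where 67.2% of 11974 genes were called (34.0% higher, 33.2% lower); their median was -0.25, against 0.00 for all genes. Libraries were apart for 7 of the 9, and for 69.7% of all genes. The count called higher in 5TGM1 was 2 without naive replicate 1, naive replicate 3 or resistant replicate 1, where Tet1 passed the filter, and 3 without naive replicate 2; that in carfilzomib-resistant cells was 2 without carfilzomib-resistant replicate 3.

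**Figure D1:**
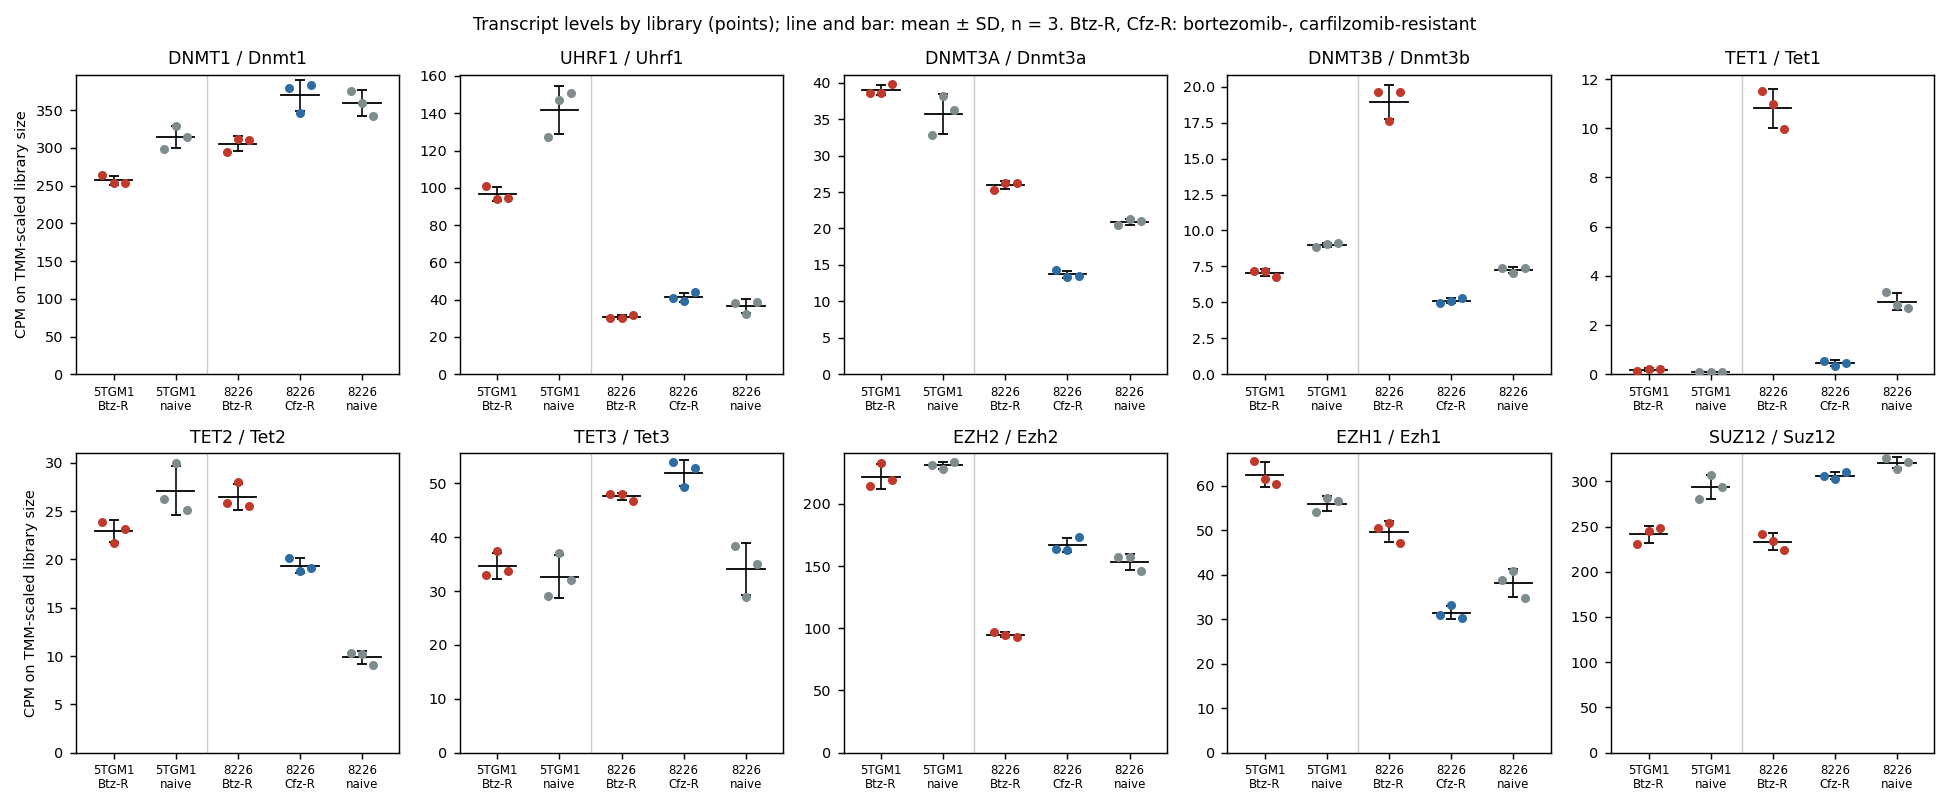
Levels of the 10 genes (vertical axis, CPM on TMM-scaled library size, from 0) in each of the 15 libraries (points, with mean and SD of 3 as line and bar), for 5TGM1 on the left of each panel and 8226 on the right. DNMT3B and TET1 stand highest in bortezomib-resistant 8226 (means of 18.9 and 10.8 CPM), where EZH2 stands lowest (94.9 CPM).

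DNMT1 was read at 294, 312 and 310.4 CPM in bortezomib-resistant 8226, at 379, 346 and 384 CPM in carfilzomib-resistant 8226 and at 376, 359.9 and 342 CPM in naive 8226. The bortezomib-resistant libraries lay below all others, while carfilzomib-resistant and naive libraries overlapped. Its level fell by 0.23 on the log2 scale in bortezomib-resistant against naive cells (SE 0.0563, 95% interval -0.35 to -0.11, adjusted p = 0.00134 by edgeR). The carfilzomib-resistant change was 0.04 (interval -0.08 to 0.16, adjusted p = 0.527 by edgeR).

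UHRF1, the partner that brings DNMT1 to newly copied DNA, had 30.2, 30.0 and 31.9 CPM in bortezomib-resistant 8226, 40.8, 39.2 and 43.9 CPM in carfilzomib-resistant 8226, and 38.4, 32.1 and 38.7 CPM in naive 8226. Here too the bortezomib-resistant libraries were the lowest, and a single naive library, replicate 2, came near them. The change from naive was -0.25 ± 0.0757 (log2, SE) in bortezomib-resistant cells (adjusted p = 0.00788) and 0.18 ± 0.0739 in carfilzomib-resistant cells (adjusted p = 0.0365, both edgeR). The small carfilzomib call ended without naive replicate 2 (0.10, adjusted p = 0.157), without carfilzomib-resistant replicate 1 (0.20, adjusted p = 0.052) and without carfilzomib-resistant replicate 3 (0.14, adjusted p = 0.149). Scaled by library size alone, the median of all genes in bortezomib-resistant against naive 8226 moved to 0.16, against -0.03 under TMM, calls turned to 6666 higher and 4680 lower, against 5314 and 5781, and the DNMT1 and UHRF1 changes of -0.05 and -0.06 were no longer called (adjusted p = 0.438 and 0.484, edgeR).

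Both maintenance genes fell in bortezomib-resistant 5TGM1 as well. Dnmt1 had 264, 253 and 254 CPM in resistant cells, against 299, 329 and 315 CPM in naive cells, a change of -0.29 ± 0.0430 (log2, SE; adjusted p = 1.7e-05, edgeR). Uhrf1 had 101, 94.1 and 94.6 CPM in resistant cells, against 127, 147 and 151 CPM in naive cells. With -0.56 ± 0.0565 (adjusted p = 2.3e-07, edgeR) it had the largest change of the 9 genes tested in 5TGM1, though 21.9% of all genes tested there changed more. The groups did not overlap for either gene.

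DNMT1 reads per UHRF1 read averaged 9.95 ± 0.375 in bortezomib-resistant, 8.95 ± 0.281 in carfilzomib-resistant and 9.95 ± 1.20 in naive 8226 (SD, n = 3), and both resistant groups overlapped the naive one. In 5TGM1 the ratio was 2.66 ± 0.0422 in resistant and 2.22 ± 0.135 in naive cells, with no overlap. Such a ratio does not depend on library scaling, but it compares reads, not molecules, since the transcripts differ in length.

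DNMT3B, a de novo methyltransferase most active in early development, showed opposite changes in the 2 resistant 8226 lines. It had 19.6, 17.6 and 19.6 CPM in bortezomib-resistant cells, 4.94, 5.12 and 5.27 CPM in carfilzomib-resistant cells and 7.36, 7.04 and 7.40 CPM in naive cells. The 3 groups were fully apart, with naive cells between the resistant ones. Bortezomib-resistant cells were 2.60-fold higher than naive (log2 1.38 ± 0.0759, SE, adjusted p = 1.4e-10) and carfilzomib-resistant cells 1.42-fold lower (-0.51 ± 0.0822, adjusted p = 4.9e-05, both edgeR). Compared directly, carfilzomib-resistant cells had 3.70-fold less than bortezomib-resistant ones (-1.89, interval -2.05 to -1.72).

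DNMT3A, the de novo enzyme typical of differentiated and blood-forming cells, followed the same order of groups. Its step from naive to bortezomib-resistant cells was smaller than that of DNMT3B, and its step to carfilzomib-resistant cells was not. It had 25.3, 26.2 and 26.3 CPM in bortezomib-resistant, 13.4 to 14.3 CPM in carfilzomib-resistant and 20.5, 21.3 and 21.0 CPM in naive 8226. Its change from naive was 0.31 ± 0.0609 in bortezomib-resistant cells (adjusted p = 2.7e-04) and -0.61 ± 0.0620 in carfilzomib-resistant cells (log2, SE, adjusted p = 3.6e-07, both edgeR). DNMT3A reads per DNMT3B read were 1.37 ± 0.104 in bortezomib-resistant, 2.70 ± 0.173 in carfilzomib-resistant and 2.88 ± 0.122 in naive 8226 (SD, n = 3). The bortezomib-resistant libraries were all below the others, and the carfilzomib-resistant and naive ones overlapped.

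In 5TGM1 the de novo pair moved the other way relative to each other. Dnmt3b had 7.19, 7.20 and 6.79 CPM in resistant cells, against 8.86, 9.05 and 9.10 CPM in naive cells, a change of -0.35 ± 0.0646 (log2, SE; adjusted p = 1.6e-04, edgeR). Dnmt3a had 38.6, 38.6 and 39.8 CPM in resistant cells, against 32.8, 38.2 and 36.3 CPM in naive cells. Its libraries did not overlap, but the change of 0.12 (interval 0.01 to 0.23) missed the threshold at an adjusted p of 0.0546 by edgeR. Without naive replicate 2 it was 0.17 and called (adjusted p = 0.0121, edgeR). Dnmt3a reads per Dnmt3b read were 5.53 ± 0.278 in resistant and 3.97 ± 0.264 in naive 5TGM1 (SD, n = 3), with no overlap.

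**Figure D2:**
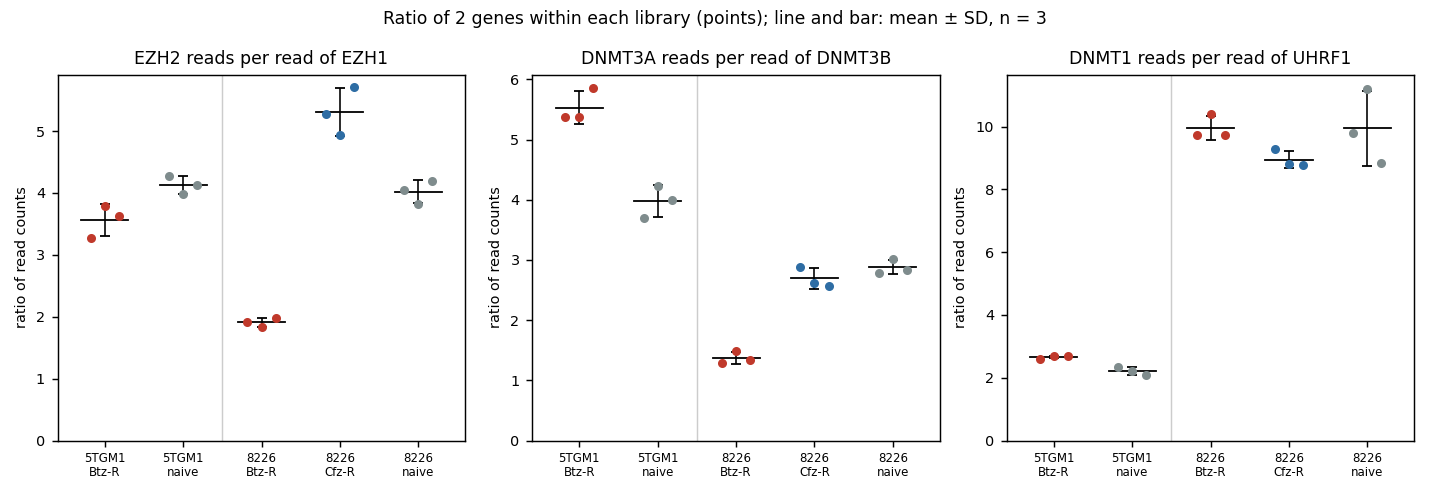
Read ratio of gene pairs within each library (vertical axis, from 0; points are libraries, line and bar the mean and SD of 3). In bortezomib-resistant 8226 the EZH2 to EZH1 ratio (1.91) and the DNMT3A to DNMT3B ratio (1.37) lie below those of every other 8226 library, while the DNMT1 to UHRF1 ratio (9.95) equals the naive mean.

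TET1 had the widest range of the 10 genes across the 8226 groups. It was read at 11.5, 11 and 9.95 CPM in bortezomib-resistant cells (423, 378 and 363 reads), at 0.551, 0.338 and 0.469 CPM in carfilzomib-resistant cells (29, 14 and 27 reads) and at 3.34, 2.83 and 2.68 CPM in naive cells (149, 112 and 99 reads). The groups were fully apart, again with naive cells between. Against naive, the bortezomib-resistant level was 3.65-fold higher (log2 1.87 ± 0.113, SE, adjusted p = 4.2e-10) and the carfilzomib-resistant level 6.40-fold lower (-2.68 ± 0.173, adjusted p = 1.6e-09, both edgeR). Carfilzomib-resistant cells had 23.4-fold less than bortezomib-resistant ones (-4.55, interval -4.86 to -4.23), and 7.57% of all genes tested differed more between these lines. Tet1 was near the limit of detection in 5TGM1, with 7, 13 and 11 reads in resistant cells and 4, 6 and 4 reads in naive cells, and did not pass the filter on low counts. Tested without that filter, its change was 1.21 ± 0.483 (log2, SE; adjusted p = 0.0277, edgeR).

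TET2, the TET enzyme of blood cells, was higher in both resistant 8226 lines. It had 25.9, 28.0 and 25.5 CPM in bortezomib-resistant cells and 20.2, 18.8 and 19.1 CPM in carfilzomib-resistant cells, against 10.3, 10.2 and 9.06 CPM in naive cells. The rise was 2.68-fold in bortezomib-resistant (log2 1.42 ± 0.0748, SE, adjusted p = 7.8e-11) and 1.96-fold in carfilzomib-resistant cells (0.97 ± 0.0745, adjusted p = 1.2e-08, both edgeR). Between the resistant lines, carfilzomib-resistant cells were lower (-0.45 ± 0.0700, adjusted p = 2.7e-05, edgeR). Tet2 went the other way in 5TGM1, with 23.9, 21.7 and 23.2 CPM in resistant cells and 26.3, 30.0 and 25.1 CPM in naive cells (-0.25 ± 0.0636, adjusted p = 0.00233, edgeR).

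TET3, the enzyme prominent in egg and embryo, also rose in both resistant 8226 lines. It had 48.0, 48.0 and 46.8 CPM in bortezomib-resistant and 53.9, 49.3 and 52.8 CPM in carfilzomib-resistant cells, against 38.4, 28.9 and 35.0 CPM in naive cells. The changes were 0.48 ± 0.0828 (adjusted p = 7.0e-05) and 0.61 ± 0.0819 (log2, SE, adjusted p = 7.2e-06, both edgeR). The resistant lines differed by 0.13 (interval -0.04 to 0.30, adjusted p = 0.161 by edgeR), which was not called. Tet3 had 33.0 to 37.4 CPM in resistant and 29 to 37 CPM in naive 5TGM1, overlapping groups with a change of 0.08 (interval -0.07 to 0.23). That change became 0.18 and was called without naive replicate 2 (adjusted p = 0.0226, edgeR). Summed over the 3 TET genes, the level was 82.2 to 87.0 CPM in bortezomib-resistant, 68.5 to 74.7 in carfilzomib-resistant and 41.9 to 52.0 in naive 8226. In 5TGM1 the sum was 57.1 to 59.3 CPM in resistant and 55.4 to 67.1 in naive cells.

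EZH2 had the largest difference of the 3 PRC2 genes between the resistant 8226 lines. It had 96.7, 94.9 and 93.0 CPM in bortezomib-resistant cells, 164, 163 and 173 CPM in carfilzomib-resistant cells and 157, 157 and 146 CPM in naive cells. The bortezomib-resistant libraries stood well below the rest. They were 1.62-fold lower than naive (log2 -0.69 ± 0.0509, SE, adjusted p = 4.8e-09, edgeR), and carfilzomib-resistant cells were 1.75-fold above them (0.81 ± 0.0508, adjusted p = 7.8e-10, edgeR). The carfilzomib-resistant change from naive, 0.12 ± 0.050 (adjusted p = 0.0429, edgeR), ended as a call without naive replicate 3 (0.08, adjusted p = 0.175), without carfilzomib-resistant replicate 2 (0.14, adjusted p = 0.0521) and without carfilzomib-resistant replicate 3 (0.10, adjusted p = 0.149). Ezh2 had 214 to 233 CPM in resistant and 228 to 234 CPM in naive 5TGM1, overlapping groups with a change of -0.06 (interval -0.14 to 0.03, adjusted p = 0.246 by edgeR).

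EZH1, the alternative catalytic subunit, was higher where EZH2 was lower in bortezomib-resistant 8226. It had 50.5, 51.5 and 47.0 CPM in bortezomib-resistant, 31.0, 33.1 and 30.2 CPM in carfilzomib-resistant and 38.8, 40.9 and 34.8 CPM in naive 8226. The changes from naive were 0.38 ± 0.0682 in bortezomib-resistant (adjusted p = 1.1e-04) and -0.28 ± 0.0685 in carfilzomib-resistant cells (log2, SE, adjusted p = 0.00173, both edgeR). EZH2 reads per EZH1 read were 1.91 ± 0.0680 in bortezomib-resistant, 5.31 ± 0.394 in carfilzomib-resistant and 4.02 ± 0.18 in naive 8226 (SD, n = 3). No library of one group overlapped another in this ratio, which differed 2.77-fold between the resistant lines. Ezh1 rose slightly in resistant 5TGM1, with 65.6, 61.5 and 60.4 CPM against 54.1, 57.2 and 56.6 CPM in naive cells (0.16 ± 0.0450, adjusted p = 0.00521, edgeR), and the ratio there was 3.56 ± 0.268 in resistant and 4.13 ± 0.141 in naive cells.

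SUZ12, the scaffold without which PRC2 does not assemble, had 242, 234 and 224 CPM in bortezomib-resistant, 306, 302 and 309.8 CPM in carfilzomib-resistant and 326, 314 and 321 CPM in naive 8226. It was 1.37-fold lower in bortezomib-resistant than in naive cells (log2 -0.46 ± 0.0482, SE, adjusted p = 3.5e-07, edgeR). The carfilzomib-resistant change of -0.07 (interval -0.17 to 0.04, adjusted p = 0.231 by edgeR) was not called, although the libraries did not overlap. Suz12 fell in resistant 5TGM1, to 231, 245 and 248 CPM against 280.2, 307 and 294 CPM in naive cells (-0.28 ± 0.0445, adjusted p = 3.1e-05, edgeR). The human SUZ12 values are uncertain by the reads it shares with its pseudogene SUZ12P: ambiguously mapped reads were not counted, and SUZ12P itself received 398 to 451 reads per bortezomib-resistant, 478 to 629 per carfilzomib-resistant and 337 to 516 per naive library. Those are 5.05%, 3.71% and 3.49% of the SUZ12 counts of the groups.

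**Figure D3:**
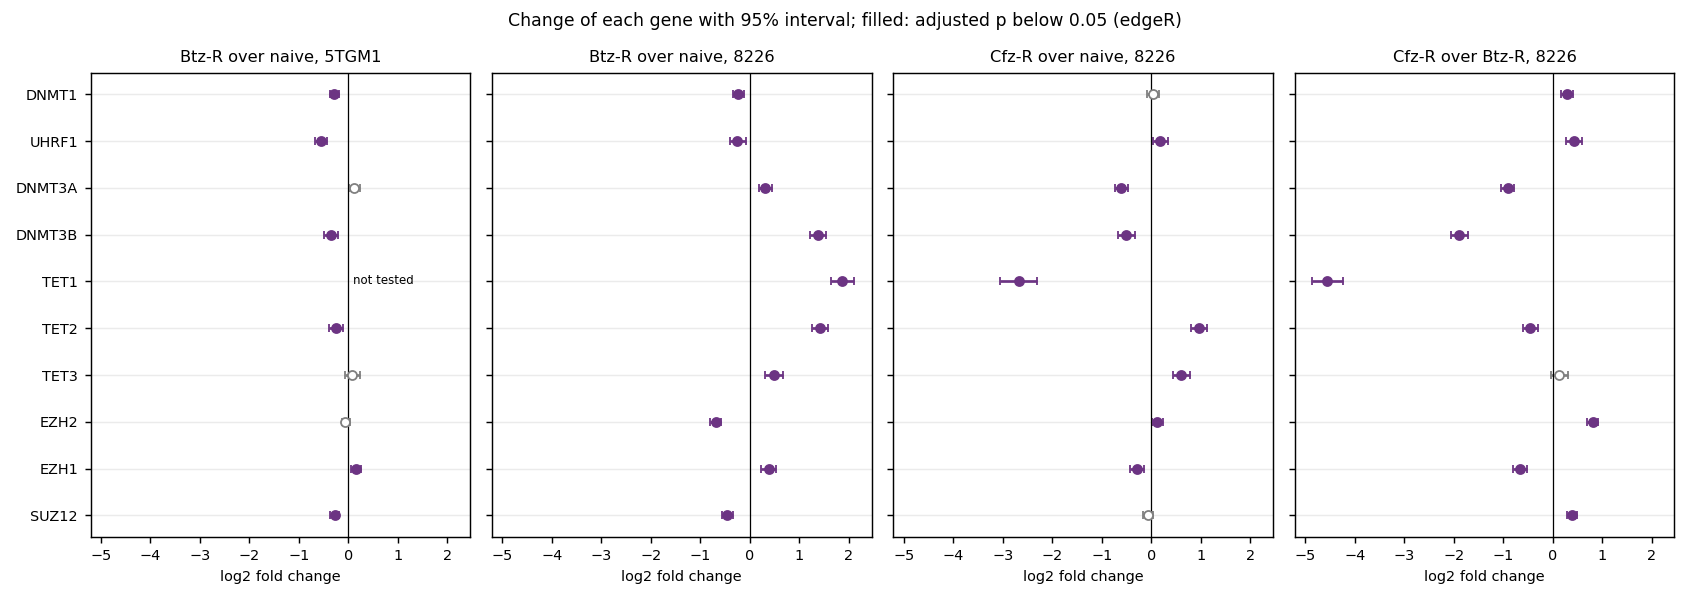
Log2 fold change of each gene (horizontal axis) with its 95% interval in the 4 comparisons; filled points have an adjusted p under 0.05 by edgeR, and Tet1 was not tested in 5TGM1. In 8226 the bortezomib-resistant changes of DNMT3B (1.38), TET1 (1.87) and EZH1 (0.38) are positive where the carfilzomib-resistant ones (-0.51, -2.68 and -0.28) are negative.

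Set against each other, carfilzomib-resistant 8226 cells had 4 of the 10 genes called higher (DNMT1, UHRF1, EZH2 and SUZ12) and 5 lower (DNMT3A, DNMT3B, TET1, TET2 and EZH1) than bortezomib-resistant cells, with TET3 not called. Of all genes, 76.9% were called in this comparison, 39.9% higher and 37.0% lower, and libraries were apart for 79.8%, so the number of calls is not particular to the 10. By role, the genes called higher were those of replication-linked maintenance and the main PRC2 subunits. Those called lower were the de novo genes, TET1, TET2 and the alternative PRC2 enzyme. TET3 did not go with the other TET genes: its change was 0.13, and its carfilzomib-resistant libraries all lay above the bortezomib-resistant ones. A division by role was not tested. The remaining values of that comparison are 0.28 for DNMT1, 0.43 for UHRF1, 0.39 for SUZ12, -0.91 for DNMT3A and -0.66 for EZH1 (log2, adjusted p at most 3.7e-04, edgeR). The 3 comparisons within 8226 share libraries in pairs, so they are not independent of each other.

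Bortezomib resistance came with changes called different in the human and the mouse line for 7 of the 10 genes. That number is near the share over all matched genes given next, and is not particular to the 10. In a fit of the interaction over 11847 symbols matched between species by name, the change in 8226 minus that in 5TGM1 was called positive for 6 of the 10 genes and negative for 1, where 64.9% of all matched genes were called (31.4% positive, 33.5% negative). The difference was 1.75 ± 0.102 for DNMT3B (adjusted p = 9.1e-12) and 1.69 ± 0.107 for TET2 (log2, SE, adjusted p = 3.5e-11, both edgeR), the genes that rose in resistant 8226 and fell in resistant 5TGM1. It was -0.61 ± 0.0691 for EZH2 (adjusted p = 1.7e-07), which fell in resistant 8226 and was not called in 5TGM1. UHRF1 differed by 0.33 (adjusted p = 0.00774), having fallen in both lines but more in 5TGM1. TET3 differed by 0.42, EZH1 by 0.24 and DNMT3A by 0.21 (adjusted p = 0.00716, 0.0191 and 0.0378, edgeR). DNMT1 (0.08, interval -0.07 to 0.23), SUZ12 (-0.15, interval -0.30 to -0.00) and TET1 (0.70, interval -0.31 to 1.70) were not called. The DNMT3A call ended without any 1 of 7 libraries (naive 5TGM1 replicates 2 and 3, resistant 5TGM1 replicates 1 and 2, naive 8226 replicate 1, bortezomib-resistant 8226 replicates 2 and 3), with a difference of 0.16 to 0.21 and an adjusted p of 0.0573 to 0.117 by edgeR. The EZH1 call ended without resistant 5TGM1 replicate 3 (0.22) or naive 8226 replicate 3 (0.18). SUZ12 was called at -0.17 or -0.18 without naive 5TGM1 replicate 2, resistant 5TGM1 replicate 1, naive 8226 replicate 2 or bortezomib-resistant 8226 replicate 1. The lines also differ in species, in drug concentration and in sequencing depth, which cannot be told apart here.

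Levels per transcript length can be set side by side between genes in 8226 (CPM per kilobase of the longest GENCODE transcript with a RefSeq match; the gene models behind the deposited counts may differ). In naive cells SUZ12 stood at 71.3 ± 1.35, DNMT1 at 66.4 ± 3.10 and EZH2 at 58.1 ± 2.43 CPM per kilobase (SD, n = 3). UHRF1 (8.45 ± 0.871) and EZH1 (8.25 ± 0.667) followed and did not differ beyond their spread. Below them came TET3 (2.99 ± 0.423), DNMT3A (2.20 ± 0.0400), DNMT3B (1.68 ± 0.0457), TET2 (1.02 ± 0.0725) and TET1 (0.318 ± 0.0373). In bortezomib-resistant cells DNMT3B, at 4.36 ± 0.268, stood above DNMT3A, at 2.73 ± 0.0588, on this scale. The order of that pair, and the places of both among the other genes, rest on the transcript assumed. DNMT3A transcripts range from 1775 to 9501 bases and DNMT3B transcripts from 2315 to 4336.

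Genes with the most similar profile were sought among 9053 genes of at least 10 CPM over the 9 libraries of 8226; the libraries form 3 groups, so a correlation of log2 levels mostly reflects the order of 3 group means and is a description only. The closest to EZH2 were NETO2, TRIP13 and MYB (Pearson r of 0.997 to 0.998), and TRIP13, a mitotic checkpoint ATPase, had 161 CPM in bortezomib-resistant, 305 in carfilzomib-resistant and 271 in naive cells. The closest to DNMT3B were TCN2, PIR and ICAM1 (0.997 to 0.998), and ICAM1, an adhesion molecule, had 521, 194 and 249 CPM in the same order of groups. TET1 was closest to LINC00094, ATP7A and MED14 (0.998 to 0.999), TET2 to ATP8A1 and DOCK9 (0.999), and DNMT1 to MTOR (0.991).

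The lists of related genes below are to be read against the share of all genes called, which was 38.2% higher and 41.6% lower in bortezomib-resistant 8226, 35.0% higher and 36.7% lower in carfilzomib-resistant 8226 and 34.0% higher and 33.2% lower in resistant 5TGM1, each against naive cells. Among the partners of PRC2, calls went in both directions. Of 9 tested in bortezomib-resistant against naive 8226, 3 were called higher and 5 lower, with a median of -0.16. AEBP2, a cofactor that stimulates PRC2, had 27.3 ± 0.770 CPM in bortezomib-resistant and 65.3 ± 1.16 CPM in naive cells (log2 -1.26, adjusted p = 2.5e-11, edgeR), and C17orf96, the PRC2-binding protein also named EPOP, had 46.7 ± 1.78 and 110.3 ± 9.94 CPM in the same groups (-1.24). PHF1, a Polycomb-like accessory subunit, was higher, at 28.7 ± 1.98 CPM in bortezomib-resistant and 15.4 ± 0.730 CPM in naive cells (0.90). EED, named here as a core subunit and not for the size of its change, had 43.4 CPM in bortezomib-resistant and 56.1 CPM in naive cells (-0.37, adjusted p = 8.5e-05, edgeR). In carfilzomib-resistant 8226, 3 partners were called higher and 3 lower (median 0.02), with RBBP7, a histone chaperone of the complex, at 261 ± 5.84 CPM against 542 ± 34.5 CPM in naive cells (-1.06). In resistant 5TGM1 the count was 2 higher and 3 lower (median -0.07); Phf1 rose (0.86) and E130012A19Rik, the mouse Epop, fell (-0.79).

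PRC1 is the complex that ubiquitinates histone H2A, and some of its forms bind PRC2's mark. Its subunits were called in both directions in each line. Of 22 subunits tested, 10 were called higher and 7 lower in bortezomib-resistant (median 0.03, with 38.2% and 41.6% of all genes) and 12 higher and 5 lower in carfilzomib-resistant against naive 8226 (median 0.28, with 35.0% and 36.7% of all genes). PCGF3, which defines a variant PRC1, had 54.5 ± 2.39 CPM in bortezomib-resistant and 34.9 ± 0.709 CPM in carfilzomib-resistant cells, against 12 ± 0.598 CPM in naive cells (log2 2.18 and 1.54). PHC2, a polymerising subunit, was also higher in both (1.38 and 0.76), while BCOR, the corepressor of a variant PRC1, was lower (-1.01 and -0.72). RYBP, a variant PRC1 subunit, had 54.0 ± 0.335 CPM in carfilzomib-resistant and 18.6 ± 0.0713 CPM in bortezomib-resistant cells (1.53). In resistant 5TGM1, 10 of 21 were called higher and 4 lower (median 0.11, with 34.0% and 33.2% of all genes), and the higher ones included Pcgf1 at 0.66, Pcgf5 at 0.51 and Cbx2 at 0.46.

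Enzymes that oppose Polycomb showed single large changes. WHSC1, the H3K36 methyltransferase also called NSD2, had 325 ± 10.1 CPM in bortezomib-resistant and 419 ± 12.1 CPM in carfilzomib-resistant cells, against 187 ± 8.72 CPM in naive 8226 (log2 0.79 and 1.16, adjusted p at most 1.2e-09, edgeR). ASXL3, a partner of the deubiquitinase BAP1, had 90.8 ± 2.83 and 34.4 ± 2.27 CPM in those resistant lines, against 280.0 ± 17.6 CPM in naive cells (-1.62 and -3.02). The list of 12 as a whole had 3 called higher and 4 lower in bortezomib-resistant and 4 higher and 3 lower in carfilzomib-resistant 8226. In resistant 5TGM1, 1 of 11 was called higher and 8 lower, where 34.0% of all genes were called higher and 33.2% lower, led by Bap1 with 58.1 ± 2.92 CPM in resistant and 123 ± 3.92 CPM in naive cells (-1.08).

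Among the partners of DNA methylation, USP7, a deubiquitinase that stabilises UHRF1 and DNMT1, had 302 ± 15.6 CPM in bortezomib-resistant and 556 ± 18.1 CPM in carfilzomib-resistant cells, against 733 ± 52.0 CPM in naive 8226 (log2 -1.28 and -0.40, adjusted p at most 2.5e-05, edgeR). CDCA7, which recruits the remodeller HELLS, had 215 ± 6.77 CPM in carfilzomib-resistant and 84.1 ± 1.18 CPM in naive cells (1.35); the bortezomib-resistant value was 79.6 CPM (-0.08, not called). AHCY, which clears the product of methylation reactions, had 307 ± 16.8 CPM in bortezomib-resistant, 178 ± 5.56 in carfilzomib-resistant and 223 ± 12.9 in naive cells. Of 9 partners tested, 2 were called higher and 4 lower in bortezomib-resistant, 2 higher and 3 lower in carfilzomib-resistant 8226, and 1 higher and 5 lower in resistant 5TGM1.

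On the demethylation side, IDH1, which makes the 2-oxoglutarate that TET enzymes need, had 199 ± 5.12 CPM in bortezomib-resistant and 76.7 ± 1.08 CPM in carfilzomib-resistant cells, against 40.8 ± 2.62 CPM in naive 8226 (log2 2.29 and 0.91, adjusted p at most 7.2e-10, edgeR). Of 12 genes on the list, 5 were called higher and 5 lower in bortezomib-resistant and 4 higher and 6 lower in carfilzomib-resistant cells. GADD45G, chosen after its values were seen, was at 0 counts in the carfilzomib-resistant libraries and had 16 in the naive ones, at least 6.68-fold lower against a limit of 3 counts over the group. In resistant 5TGM1, 5 of 11 were called, where 67.2% of all genes were, each of the 5 lower, led by the repair endonuclease Apex1 with 67.6 ± 2.88 CPM in resistant and 164 ± 3.47 CPM in naive cells (-1.28).

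Of 7 readers of methylated CpG and their relatives, 2 (MBD2 and MBD3) were called higher and 3 lower in bortezomib-resistant 8226. In carfilzomib-resistant 8226, 1 was called higher and 5 lower. ZBTB38 had 220.5 ± 3.61 and 352 ± 18.2 CPM in those resistant lines, against 911 ± 33.6 CPM in naive cells (log2 -2.05 and -1.37, adjusted p at most 3.3e-12, edgeR). MBD2, a subunit of the NuRD corepressor, had 357 ± 18.2 CPM in bortezomib-resistant, 176 ± 13.6 in carfilzomib-resistant and 204 ± 14.6 in naive cells. In 5TGM1, 3 readers were called higher and 2 lower, with Zbtb4 at 0.53. Of 10 genes of H3K9 methylation, the other main silencing mark, 1 was called higher and 4 lower in bortezomib-resistant 8226, 4 higher and 4 lower in carfilzomib-resistant 8226, and 7 of 10 were called in resistant 5TGM1, where 67.2% of all genes were. Each of the 7 was lower, Setdb2 (-1.06) and Trim28 (-0.47) among them.

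**Figure D4:**
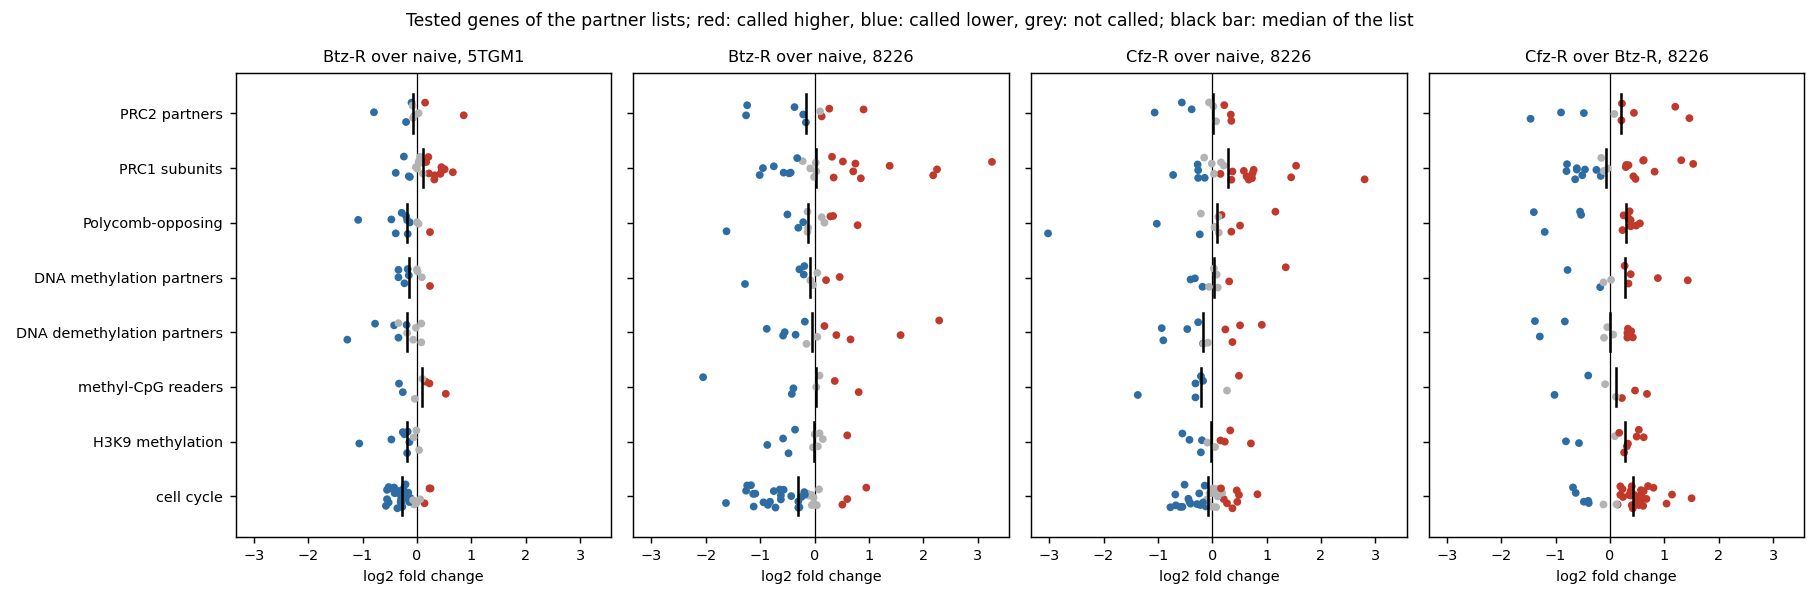
Log2 fold change (horizontal axis) of each tested gene of 8 lists in the 4 comparisons; red points are called higher, blue lower and grey not called, and the black bar is the list's median. Genes at 0 counts in a whole group are not drawn but count in the median. The cell cycle list has its median at -0.27 and -0.30 in the bortezomib-resistant comparisons, and at 0.42 in carfilzomib-resistant over bortezomib-resistant 8226.

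DNMT1, UHRF1 and EZH2 are known to be expressed with the cell cycle, so a list of genes of proliferation is set beside them. Of 35 cell cycle genes, 3 were called higher and 23 lower in bortezomib-resistant against naive 8226 (median -0.30), where 38.2% of all genes were called higher and 41.6% lower. In carfilzomib-resistant against naive 8226, 8 were called higher and 15 lower (median -0.08, with 35.0% and 36.7% of all genes); DNMT1 was not called there, and UHRF1 and EZH2 were slightly higher. In carfilzomib-resistant against bortezomib-resistant 8226, 28 were called higher and 5 lower (median 0.42, with 39.9% and 37.0% of all genes), and DNMT1, UHRF1 and EZH2 were higher. In resistant 5TGM1, 3 were called higher and 26 lower (median -0.27, with 34.0% and 33.2% of all genes); Dnmt1 and Uhrf1 were lower there and Ezh2 was not called. The summed level was 5759.1 to 5789.8 CPM in bortezomib-resistant, 7597.4 to 7850.5 in carfilzomib-resistant and 8095.2 to 8118.7 in naive 8226, and 5757.0 to 5820.7 in resistant and 6853.5 to 7091.0 in naive 5TGM1. CCNB2, a mitotic cyclin, had 74.1 ± 1.47 CPM in bortezomib-resistant, 209 ± 4.6 in carfilzomib-resistant and 230.0 ± 13.5 in naive 8226. The part of proliferation in the changes of the 10 genes was not tested.

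Classical targets of Polycomb, a list of 54 HOX and other developmental genes, were mostly silent. Only 18 passed the filter on low counts in 8226 and 22 in 5TGM1, and at 0 counts stood 39 in bortezomib-resistant, 25 in carfilzomib-resistant and 26 in naive 8226. A count of 0 depends on depth, and the bortezomib-resistant libraries were the shallowest. The part of depth in these numbers was not tested. Those that passed did so through the group in which they were read, so their counts of calls are not given. HOXA5, a homeobox factor, had 968 reads over the carfilzomib-resistant libraries (6.36 ± 0.223 CPM), 0 over the bortezomib-resistant ones and 1 over the naive ones. That is at least 229-fold higher than in bortezomib-resistant cells, against a limit of 3 counts over the group, and 773-fold higher than in naive cells with a 95% counting interval of 138 to 30576.8. HOXC4 had 877 reads over the carfilzomib-resistant and 2 over the bortezomib-resistant libraries, a ratio of 311 with a counting interval of 85.8 to 2571.9, and a mean of 0.354 CPM in naive cells. HOXB7 had 12.9 ± 0.836 CPM in bortezomib-resistant and 19 ± 1.59 in carfilzomib-resistant cells, against 8.12 ± 0.497 in naive cells (log2 0.67 and 1.22). In 5TGM1, Hoxa10 had 7 reads over the resistant and 1652 over the naive libraries, a ratio of naive to resistant of 225 with an interval of 109 to 559.9; these intervals cover counting error only.

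Most germline genes known to be silenced by DNA methylation were also near silence, and of 17 listed, 3 passed the filter in 8226 and 4 in 5TGM1. The sum of the 17 was nevertheless 102 to 113 CPM in naive 5TGM1, most of it Tex101. SYCP3, a protein of the meiotic chromosome axis, had 14.3 ± 0.348 CPM in bortezomib-resistant, 0.341 ± 0.0716 in carfilzomib-resistant and 1.27 ± 0.125 CPM in naive 8226 (log2 3.49 in bortezomib-resistant against naive cells, adjusted p = 1.4e-13, edgeR). In 5TGM1, Tex101 had 2.13 ± 0.415 CPM in resistant and 96.9 ± 5.36 CPM in naive cells (-5.49), and Brdt had 15.7 ± 1.25 and 6.55 ± 0.402 CPM in the same groups (1.26).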

How the data were processed

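RNA-seq libraries of 5 groups were used, grouped by sample title. The authors deposited whole-number counts of reads for each gene, with no normalization. Their tables have STAR's columns, and the submitters' processing notes name STAR with no version. Builds in those notes are GRCm38 (mm10) and GRCh37 (hg19), with no role stated, and no annotation release is given. Column 4, which held almost all stranded gene reads, was used (1.43% to 2.12% lay on the other strand); the rows of totals stayed out. Multi-mapped reads, 8.95% to 16.3% of all, were not counted, so genes with near-identical copies are undercounted. Limits and intervals cover counting error only.

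Counts were tested with edgeR 4.0.16 (quasi-likelihood F test, TMM, filterByExpr, limma 3.58.1, R 4.3.3), in 1 fit for the 6 libraries of 5TGM1 and 1 for the 9 of 8226, with adjusted p over all tested genes. SE is the log2 change divided by the root of F, and intervals are at 95%. The interaction was fitted over symbols that match without regard to case, which is no table of orthologues. The calculation was tested on simulated data. DESeq2 1.42.0, other scalings, no filter, counts without regard to strand, the replicate number as a block, fewer libraries and leaving out each library were tried as alternatives. Transcript lengths came from GENCODE release 29 and promoters from RefSeq; the mouse promoters were not analysed here. The 10 genes and all lists were chosen with earlier results of these data known, so no list was tested; list counts are read against the shares over all genes. Named from each list and comparison were at most 3 called genes with the largest change and at least 5 CPM in the higher group. A gene so named may also be given in other comparisons. Cell type markers are named also to show what a sum holds. Any other name is said to be so. Replicates of a group differed by more than counting noise (chi-square per degree of freedom 3.84 to 24.4), so none was a copy of another's counts. That cannot tell whether they came from separate RNA or cultures. A further gene that the likeness rule selects is not reported here.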

Additional observations from a re-analysis of the deposited data

Results flagged for a closer look

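The bortezomib-resistance change differed between 8226 and 5TGM1, by a test of the interaction (edgeR, adjusted over all matched symbols), for 7 of the 10 genes, where 64.9% of all matched genes differed. In the order of 8226 minus 5TGM1 on the log2 scale, the difference was 1.75 for DNMT3B, 1.69 for TET2, 0.42 for TET3, 0.33 for UHRF1, 0.24 for EZH1, 0.21 for DNMT3A and -0.61 for EZH2. DNMT3B and TET2 had opposite directions in the lines, each past the threshold in both: 1.38 and 1.42 in resistant 8226, and -0.35 and -0.25 in resistant 5TGM1. The values for DNMT3A and EZH1 lay close to the threshold (adjusted p = 0.0378 and 0.0191, edgeR).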

How the results depend on the processing

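Of 49 single-gene results, 38 kept their direction and side of the threshold under every alternative run; of 678 alternative values 11 gained and 28 lost the call. The only reversal was SUZ12 in the difference between lines, at 0.03 with library size alone. In resistant 5TGM1 the count of genes called higher was 3 with no filter (Tet1 and Dnmt3a then passed) and 1 to 3 when a library was left out. In bortezomib-resistant against naive 8226 the count called lower was 2 with library size alone. In carfilzomib-resistant against naive 8226 the count called higher was 2 with DESeq2 size factors, 2 with the DESeq2 Wald test, 2 with only the 6 libraries compared, and 2 to 4 when a library was left out; UHRF1 and EZH2 were the genes lost. The count of negative differences between lines was 2 with DESeq2 size factors, 2 with the DESeq2 Wald test and 1 to 2 when a library was left out, as SUZ12 passed (-0.19, adjusted p = 0.022 and 0.0101 in those fits). The positive DNMT3A difference lost its call with DESeq2 size factors, the DESeq2 Wald test and no filter (adjusted p = 0.0935, 0.091 and 0.0667), and with library size alone DNMT1 gained one (0.26) as calls turned to 4642 positive and 3235 negative, against 3717 and 3973. The cause was not tested. TET3 between the resistant lines was called with only the 6 libraries compared (0.13, adjusted p = 0.0318, edgeR). Replicate numbers did not pair the libraries (same-number correlations -0.22 to 0.34); with the replicate block EZH2 in carfilzomib-resistant against naive 8226 stayed at 0.12 but lost its call (adjusted p = 0.058, edgeR), and no other call of the 10 genes changed. Low counts limit Tet1 in 5TGM1, with 31 and 14 reads in resistant and naive cells.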
